A study of Sus scrofa with 8 samples.

Results

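The sites described here are CTCF binding sites in pig embryonic fibroblasts (PEFs) that lie inside protein-coding genes, away from transcription start sites (TSSs), and carry neither of the 2 histone marks mapped in the same cells. A site was a peak of CTCF replicate 1 on chromosomes 1 to 18 and X that overlapped a replicate 2 peak, overlapped no peak of the 4 H3K4me3 and H3K27ac libraries, had its nearest edge more than 2.5 kb from every annotated gene TSS, and had its summit inside a protein-coding gene body. Of 39854 CTCF replicate 1 peaks on these chromosomes, 38239 overlapped a replicate 2 peak, 23895 of those overlapped no histone peak, 22511 of those lay beyond 2.5 kb of a TSS, and 10873 of those fell in a protein-coding gene. These 10873 unmarked intragenic sites made up 28.4% of the replicated CTCF peaks and lay in 5627 host genes, with 126 sites shared by 2 overlapping genes. All were chosen by measured peaks, so that their enrichment and their lack of histone peaks are a description. All positions are in the Sscrofa11.1 build, and genes are those of the RefSeq annotation of that build.

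The cells were untreated fibroblasts taken from Large White pig fetuses aged 35 days and grown for 24 h in serum-containing medium. Chromatin was immunoprecipitated for CTCF, for H3K4me3 and for H3K27ac, with 2 libraries per target and with input controls, whose reads enter only through the enrichment values. The labels do not say that the 2 libraries of a target came from separate cultures, so that the spread between them may be technical. The lists held 40289 and 44682 CTCF peaks, 37932 and 43516 H3K4me3 peaks, and 74983 and 81164 H3K27ac peaks. Of 29 annotated fibroblast genes, 27 had both an H3K4me3 and an H3K27ac peak within 1 kb of the TSS in both replicates, COL1A1, FN1 and VIM among them. Over all 19487 protein-coding genes the share with both was 58.9%. Of 18 genes that define other cell types, 9 had H3K4me3 at the TSS in both replicates, against 68.9% over all protein-coding genes, and 1, SPI1, had H3K27ac, against 60.7%. No gene of that list carried both marks.

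CTCF is a zinc finger protein that binds a long, directional DNA motif. Cohesin extrudes chromatin loops and tends to halt at CTCF, most stably where the motifs at the 2 loop ends point towards each other, so that the strand of a motif is part of its function. H3K4me3 marks active or poised promoters and H3K27ac marks active promoters and enhancers, and CTCF sites without either mark are often regarded as structural sites. Inside genes CTCF has also been linked to splicing, as at PTPRC (CD45), where binding near an alternative exon slows RNA polymerase.

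The sequences at the strongest of these sites show the motif that most of the others carry. Each line gives 61 bases around the motif on the strand on which the motif was found, and the capitals mark the 19 bases of the best motif match. They are the sites of highest mean fold enrichment whose summits are not in untranslated exons.

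GBE1 intron 3, chr13:173750250-173750310, minus strand: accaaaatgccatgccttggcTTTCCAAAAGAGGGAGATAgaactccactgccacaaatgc
C1H14orf37 intron 5, chr1:187173481-187173541, minus strand: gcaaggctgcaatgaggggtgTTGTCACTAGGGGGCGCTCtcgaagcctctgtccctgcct
MMRN2 intron 8, chr14:87902645-87902705, minus strand: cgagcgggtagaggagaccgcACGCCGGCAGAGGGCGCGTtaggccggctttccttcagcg
KYNU intron 15, chr15:8859897-8859957, minus strand: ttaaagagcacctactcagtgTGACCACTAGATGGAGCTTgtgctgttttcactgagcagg
CCDC39 intron 14, chr13:118656355-118656415, plus strand: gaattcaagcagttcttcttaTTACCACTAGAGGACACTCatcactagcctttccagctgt
RETREG1 intron 3, chr16:5817866-5817926, minus strand: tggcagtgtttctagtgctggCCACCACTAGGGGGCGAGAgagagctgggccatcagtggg
PNLIPRP3 intron 6, chr14:126696790-126696850, plus strand: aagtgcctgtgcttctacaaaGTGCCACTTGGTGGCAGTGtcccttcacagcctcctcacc
MTUS2 intron 8, chr11:6418348-6418408, minus strand: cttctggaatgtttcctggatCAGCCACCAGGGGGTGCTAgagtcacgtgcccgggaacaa
TAF3 intron 2, chr10:63536859-63536919, minus strand: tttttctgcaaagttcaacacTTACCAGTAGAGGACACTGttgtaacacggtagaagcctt

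The motif was learned from 600 strong CTCF peaks that are not among the sites, and its most frequent bases read TGGCCACTAGGGGGCGCTA. Within 100 bp of the replicate 1 summit, 9848 of the 10873 sites (90.6%) held a match at p below 1e-04. The share was 91.0% at the replicate 2 summits and 9.82% at windows 1 kb away. The summits of the 2 replicates lay a median of 16 bp apart, so both searches read mostly the same sequence. Over all replicated peaks with the training peaks left out the share was 89.2%, so that the motif did not set the unmarked intragenic sites apart. The motif centre lay a median of 15 bp from the summit in replicate 1 and 13 bp in replicate 2. The words themselves varied, as the 9848 matches held 9470 distinct 19-base sequences, and 93.6% of the sites had a word found at no other site.

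The median fold enrichment of the unmarked intragenic sites was a little below that of all replicated CTCF peaks, which was 20.6 and 23.5 in the 2 replicates. Their median fold enrichment over the control was 19.9 in replicate 1 and 21.8 in replicate 2, against 20.4 and 22.6 at unmarked sites outside protein-coding genes. Intragenic sites with a histone peak had medians of 21.2 and 25.2, and sites near a TSS had 18.4 and 21.9. Sites with a histone peak outside genes had the highest medians, 24.9 and 29.8. The middle of the distribution ran from 9.92 to 32.9 in replicate 1, between the 25th and 75th percentiles. Across the sites the 2 libraries ranked fold enrichment alike (Spearman's rho of 0.943 over 10873 sites that share both libraries). Fold enrichment was higher in replicate 2 at 6773 sites, and at 147 sites (1.35%) the libraries were more than 2 times apart. A total of 58 replicate 2 peaks were each paired with more than 1 site, and those sites share its replicate 2 value.

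**Figure D1:**
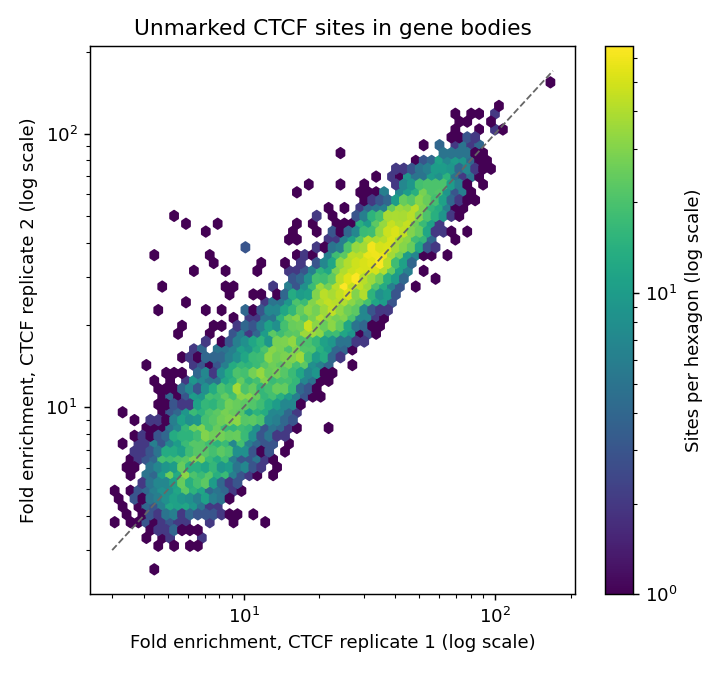
Fold enrichment of the 10873 unmarked intragenic CTCF sites in CTCF replicate 1 (horizontal, log scale) and replicate 2 (vertical, log scale), coloured by the number of sites per hexagon, with the line of equal values dashed. The sites ran from 3.07 to 166 in replicate 1 and from 2.55 to 154 in replicate 2, and 578 sites reached 50 in both.

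The strongest site lay in intron 3 of GBE1, which encodes the glycogen branching enzyme, at chr13:173749858-173750660. Its fold enrichment was 166 and 154 in the 2 replicates, a mean of 160, and the next site had a mean of 115. Although it was the strongest, its motif scored 11.05 bits, below the median of 17.0 bits at sites with a motif. The site in C1H14orf37 (chr1:187172937-187173925) had fold enrichments of 104 and 125 and one of the better motifs, at 21.3 bits. That motif lay 90 bp from the summit, and the motif shown for KYNU 80 bp, against a median of 15 bp over the sites. Whether these 2 matches are the bound sequence was not tested. The site in MMRN2, which encodes an endothelial extracellular matrix protein, was at chr14:87902186-87903049 with 99.6 and 115. Those in KYNU (kynureninase, of tryptophan breakdown) and CCDC39 (a protein needed for the assembly of motile cilia) had 106 and 108, and 98.6 and 113. RETREG1, a receptor for the autophagy of endoplasmic reticulum, held a site at 103.6 and 104.8. The remaining intronic ones were in PNLIPRP3 (101 and 108), the microtubule-associated MTUS2 (87.3 and 114) and TAF3 (81.0 and 114), a subunit of the general transcription factor TFIID. Only 1 of the 10 strongest sites was exonic, in the 3′ untranslated region (UTR) of C6H1orf50 (chr6:168660318-168661293, 97.8 and 116). H3K4me3 lay at the annotated TSS of 5 of the 10 hosts in both replicates, against 68.9% over all protein-coding genes. The hosts without it were MMRN2, KYNU, CCDC39, PNLIPRP3 and MTUS2.

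Stronger sites carried better motifs. When the sites were ranked by mean fold enrichment and split into 4 equal groups, the share with a motif rose from 77.2% in the weakest group (fold enrichment 3.41 to 10.5) to 90.4%, 96.4% and 98.3% in the strongest (34.2 to 160). At the replicate 2 summits the same shares were 78.6%, 91.1%, 96.1% and 98.2%. At 1 kb away the shares stayed between 8.28% and 10.8%. The median motif score rose in the same order, from 14.9 bits to 18.6 bits.

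The motifs of these sites were poorer in CpG than those near promoters. A CpG dinucleotide, the target of DNA methylation, stood within 35.5% of the motifs at the unmarked intragenic sites and 32.4% of those at unmarked sites outside genes. The share was 45.02% at intragenic sites with a histone peak and 65.6% at sites near a TSS. The GC content of the 201 bases around the summit ran in the same order among these, with medians of 47.3%, 46.3%, 51.7% and 58.2%. Sites with a histone peak outside genes broke that order, with CpG in 49.0% of motifs but a median GC content of 51.2%. At the unmarked intragenic sites 7.49% of the motifs lay mostly in sequence that the reference marks as repeats. Over all replicated peaks, training peaks left out, the share was 7.24%, and at unmarked sites outside genes 9.11%. It thus did not set the unmarked intragenic sites apart. Of the gene body bases open to the rule 35.4% were so marked. Only uniquely aligned read pairs had been kept, and the part of this in the shares was not tested.

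Most of these sites were intronic, but less so than the bases in which they could have been found. Bases open to the rule were those of protein-coding gene bodies that lay beyond 2.5 kb of a TSS and outside histone peaks, 980 Mb in all. Of the 10873 sites, 9948 (91.5%) had the summit in an intron and 925 (8.51%) in an exon of some transcript, with 8.60% exonic at the replicate 2 summits. Of the open bases 5.77% were exonic. There were 16.4 sites per Mb of open exon and 10.8 per Mb of open intron, and exons were the denser on all 19 chromosomes. Unmarked sites outside protein-coding genes had a density of 10.2 per Mb of open sequence, close to the 11.09 per Mb of gene bodies.

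Exonic sites were split between coding sequence and UTRs. Coding exons held 388 sites, 3′ UTRs 430 and 5′ UTRs 75, and 32 were in exons of non-coding transcripts. Coding sites were weaker, with a median fold enrichment of 14.0 and 16.6 in the 2 replicates, while those in 3′ UTRs had 21.6 and 23.9 and intronic sites 20.2 and 21.9. A motif was found at 92.0% of coding and 92.6% of 3′ UTR sites, against 90.4% of intronic sites. Of the motifs in coding exons 58.3% held a CpG, against 34.1% in introns.

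Among the strongest exonic sites, beside that of C6H1orf50, was 1 in the 3′ UTR of PI15, a peptidase inhibitor, with fold enrichments of 78.4 and 98.8. The strongest coding site was in MSH3, a DNA mismatch repair gene, at chr2:89269828-89270695, with 89.6 and 77.8. It is shown because its motif, on the minus strand against a plus strand gene, lies in protein-coding sequence. Another exonic site was in the 3′ UTR of RCAN2, a calcineurin regulator, with 76.1 and 83.2.

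MSH3 coding exon, chr2:89270241-89270301, minus strand: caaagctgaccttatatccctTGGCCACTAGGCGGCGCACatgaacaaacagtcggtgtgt

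Among introns, the first held fewer sites than its length. For each gene the transcript with the longest coding sequence was taken as the reference, and 9164 sites lay in its introns. First introns held 13.9% of these (14.0% by replicate 2 summits) but 18.8% of the open intronic bases, a density of 7.93 per Mb. Last introns held 8.04% of the sites and 6.80% of the bases, at 12.6 per Mb, and the introns between them had 11.2 per Mb. A further 784 intronic sites lay beyond the ends of the reference transcript, in introns of others. Sites in first introns had lower fold enrichments (medians of 17.4 and 19.1) than those in last introns (20.3 and 22.9).

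Along the gene the sites became denser towards the 3′ end. With the gene body cut into 10 equal parts, there were 8.39 sites per Mb of open sequence in part 1, at the 5′ end (8.21 when replicate 2 peaks were taken as the lead), and 14.6 in part 10 (14.3). Part 10 was the denser on 18 of 19 chromosomes. In genes shorter than 100 kb the density rose from 9.21 to 17.7 per Mb, and in genes of 100 kb or more from 8.23 to 13.0. In the latter the increase was in the last 3 parts, at 11.02, 11.3 and 13.0, while parts 1 to 7 lay between 8.21 and 8.98 with no steady rise. Because a whole peak and not only its summit had to clear the limits, the density was also computed over bases at least 342 bp further from TSS limits and histone peaks, and was then 8.97 in part 1 and 15.1 in part 10. The 2.5 kb limit also removed all of part 1 in the shortest genes, so that the parts draw on different genes. Genes of 10 to 30 kb held 16.2 sites per Mb and those of 30 to 100 kb 13.5. The part of this in the rise was not tested. Fold enrichment changed little along the gene, with medians of 19.96 and 21.7 in part 1 and 21.4 and 23.9 in part 10.

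**Figure D2:**
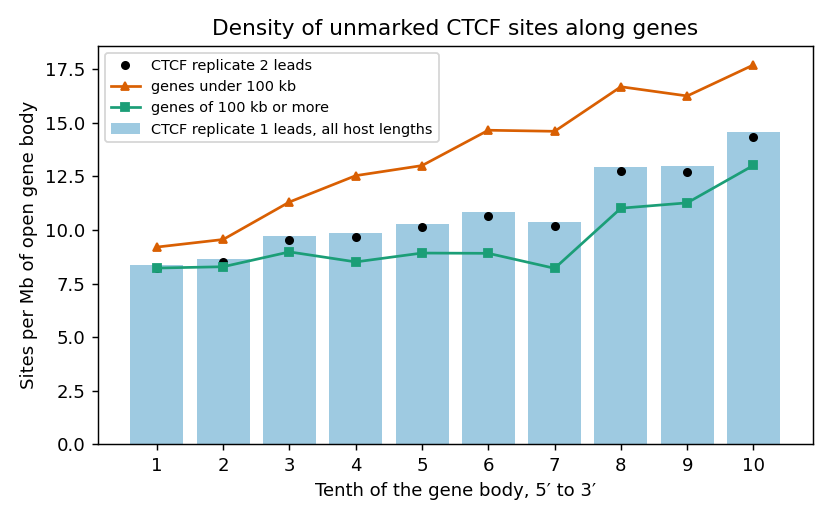
Sites per Mb of open gene body (vertical) in 10 equal parts of the host gene from 5′ to 3′ (horizontal). Bars give replicate 1 peaks, black points replicate 2 peaks taken as the lead, and lines genes under 100 kb and genes of 100 kb or more, and all 4 series were higher in part 10 than in part 1.

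The strand of the motif varied with the position in the gene. Over all sites with a motif, 4727 of 9848 (48.0%, 95% exact binomial interval 47.0% to 49.0%; 48.1% at replicate 2 summits) had it on the coding strand of the host, here called sense. Binomial intervals cover counting error only. With the gene body cut into 4 equal parts from 5′ to 3′, 939 of 1711 motifs (54.9%, interval 52.5% to 57.3%) were sense in part 1 and 1143 of 2283 (50.1%) in part 2. In part 3 they were 1179 of 2595 (45.4%) and in part 4, at the 3′ end, 1466 of 3259 (44.98%, interval 43.3% to 46.7%). At the replicate 2 summits the shares were 54.8%, 50.4%, 45.6% and 44.9%. The summits of the 2 replicates lay a median of 16 bp apart, so both searches mostly found the same motif. The replicate 2 shares are therefore no independent repeat. Motifs in the 5′ part of a gene thus pointed more often into the gene along its transcription, and those in the 3′ part more often back into it. Part 1 had a higher sense share than part 4 on 16 of 19 chromosomes, the exceptions being chromosomes 10, 16 and 17.

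The sense share was higher in part 1 than in part 4 in each subset examined, but the middle parts did not always fall between. On plus strand genes the sense share fell from 53.9% in part 1 to 44.3% in part 4, and on minus strand genes from 55.9% to 45.6%. In genes of 100 kb or more it went from 56.1% to 43.2%, and in shorter genes the 4 parts gave 52.0%, 50.2%, 46.0% and 47.4%. Among the stronger sites, those above the median fold enrichment, it went from 56.4% to 43.1%, and among the weaker the 4 parts gave 53.2%, 47.4%, 44.7% and 47.4%. Hosts without H3K4me3 at the TSS gave 52.8%, 43.5%, 45% and 44.2%, and those with it 55.5%, 52.0%, 45.6% and 45.2%. Hosts with a single site gave 54.9% and 44.5%. The pattern was not confined to unmarked sites, since intragenic sites with a histone peak gave 56.0%, 50.4%, 45.9% and 43.4% in the 4 parts. In 3′ UTRs 218 of 398 motifs (54.8%, interval 49.7% to 59.7%) were sense, while intronic sites in part 4 were sense in 43.7%.

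**Figure D3:**
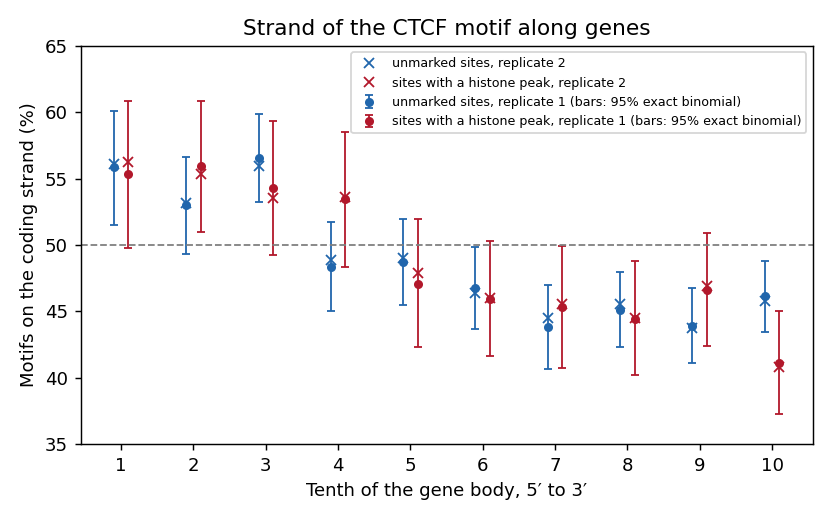
Share of CTCF motifs on the coding strand of the host gene (vertical, %) in 10 equal parts of the gene from 5′ to 3′ (horizontal), for unmarked sites in blue and sites with a histone peak in red, with 95% exact binomial intervals for replicate 1 and crosses for replicate 2. Unmarked sites had 55.9% in part 1 and 46.1% in part 10, with the highest share in part 3 (56.6%) and the lowest in part 7 (43.8%). The line at 50% marks equal shares.

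Neighbouring sites in a gene differed in relative strand according to their distance. There were 5350 pairs of adjacent sites in 1 gene, 4364 of them with a motif at both. Under 10 kb apart, 17.2% of 1250 pairs were convergent, with the motifs pointing towards each other, and 28.5% were divergent. At 10 to 50 kb the shares were 20.6% and 27.7% of 1730 pairs. The order was the opposite at longer distances, with 27.3% convergent and 19.4% divergent among 1171 pairs at 50 to 200 kb and 31.9% and 17.8% among 213 pairs at 200 kb or more. The replicate 2 summits, near which mostly the same motifs were found, gave convergent shares of 16.3%, 21.04%, 26.96% and 32.1%. The convergent share was higher at 50 kb or more than below it on 18 of 19 chromosomes. Divergent pairs outnumbered convergent ones under 50 kb on all 19, and convergent pairs outnumbered divergent ones at 50 kb or more on 15, the exceptions being chromosomes 5, 8 and 17, with more divergent pairs, and 10, with equal numbers. Same-strand pairs made up 50.2% to 54.3% at all 4 distances. Pairs with no other replicated CTCF peak between them gave 17.2%, 20.2%, 29.1% and 33.1% convergent. Unmarked sites outside genes gave 14.4%, 19.6%, 26.6% and 28.0%, the same order.

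**Figure D4:**
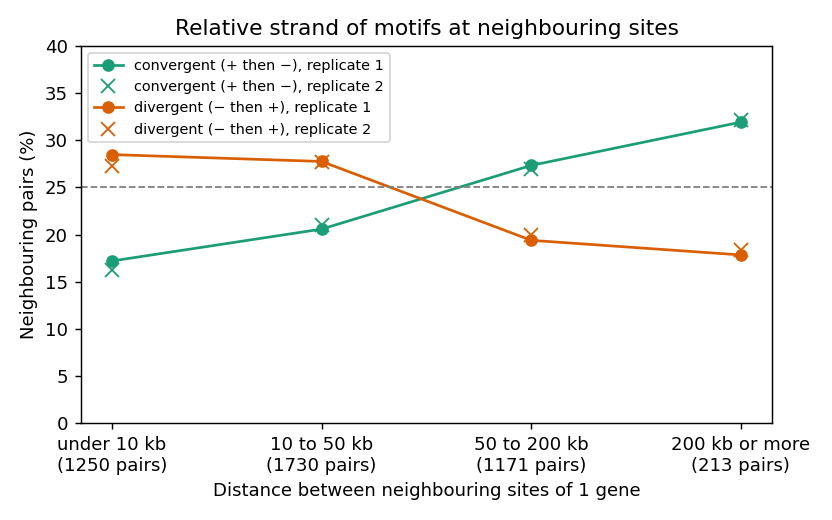
Share of neighbouring pairs of unmarked sites in 1 gene (vertical, %) that were convergent or divergent, by the distance between the sites (horizontal), with circles for replicate 1 and crosses for replicate 2 summits. Convergent pairs rose from 17.2% to 31.9% and divergent pairs fell from 28.5% to 17.8%, and the dashed line at 25% marks the share of each if strands were independent and equal.

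Every chromosome contributed sites, from 263 on chromosome 11 to 1165 on chromosome 1. Per Mb of chromosome there were 3.07 on X, the lowest, and 7.06 on chromosome 12, the highest. The share with a motif lay between 88.3% and 93.6% on all 19. Sites on X had median fold enrichments of 15.8 and 17.9, below those of each autosome, which ran from 18.8 to 22.5 in replicate 1.

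The outermost sites of a gene did not follow the shares of its 4 parts. In 2178 hosts with at least 2 sites with a motif, the site nearest the 5′ end was sense in 45.3% and that nearest the 3′ end in 52.2%. Where these lay under 10 kb apart the shares were 42.0% and 51.1%, and where they lay 200 kb or more apart 51.7% and 53.2%. The pairs of outermost sites were therefore more often divergent (28.1%) than convergent (21.2%).

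Of 19487 protein-coding genes 5627 (28.9%) held at least 1 unmarked intragenic site, which was 33.3% of the 16896 genes with open bases. In 3197 hosts there was 1 site, in 1242 there were 2, and 384 hosts held 5 or more, which together took in 2627 sites (24.2%). Hosts had a median length of 76.2 kb and other protein-coding genes of 12.2 kb. Among the 16896 genes with open bases the share that were hosts rose with length, from 4.52% of those under 10 kb to 95.1% of the 697 genes of 300 kb or more, while the density fell from 15.9 to 8.33 sites per Mb of open gene body. H3K4me3 at the TSS in both replicates was found for 77.9% of hosts and for 68.9% of all protein-coding genes. The latter include genes without open bases, which could not be hosts. Among genes with open bases, 35.5% of the 12357 with the mark and 27.4% of the 4539 without it were hosts. Per Mb of open body, genes with the mark held 10.9 sites and genes without it 11.2, and motifs were sense in 48.6% and 45.9%. Sites in the former had median fold enrichments of 19.7 and 21.7, and those in the latter 20.7 and 22.4.

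The genes with most sites were mostly very long. TENM3, a teneurin of neuronal wiring (chr15:41818190-44401747), had 22 sites over 2584 kb, with fold enrichments of 5.06 to 49.98 in replicate 1 and 4.37 to 41.8 in replicate 2. Of these 16 had a motif and 11 were sense, and the first 4 from the 5′ end were all sense. The next ones, at 22.3% and 24.7% along the gene, were antisense. The 6 without a motif were weak, at 6.47 to 14.9 in replicate 1 and 4.84 to 17.1 in replicate 2. The TENM3 sites up to 71.9% along the gene, the first 4 among them, lay outside the reference transcript. DLG2, a scaffold protein of synapses (chr9:17575991-19547417), had 19, of which 16 had a motif and 6 were sense. Its first site from the 5′ end was antisense. NAV2, a neuron navigator (chr2:39263939-40083539), had 18, of which 17 had a motif and 6 were sense. Its first 4 sites from the 5′ end were all antisense. Of its sites 6 stood within 20 kb, all outside the reference transcript. Those at chr2:39862803-39863951 and chr2:39864445-39865134 had the same replicate 2 value of 50.5. CAMTA1, a calmodulin-binding transcription activator, had 17 sites, CTNNA2 (a neuronal alpha catenin) and PTPRD (a receptor tyrosine phosphatase) 16 each, and the cyclic AMP phosphodiesterase gene PDE4D 15. SKAP1, which encodes an adaptor of T cell receptor signalling, had 14 in 309 kb, all with a motif, of which 2 were sense and 12 antisense. LOC102158035, for which RefSeq gives the synonym TCR-a, had 14 in 585 kb, with fold enrichments from 5.82 to 62.9 and 9 motifs sense. It carried no H3K4me3 at its annotated TSS. The remaining host with 14 sites was LOC110255247. H3K4me3 was found at the TSS of 8 of these 10 hosts in both replicates, against 68.9% over all protein-coding genes. H3K27ac was found at 3, against 60.7%.

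**Figure D5:**
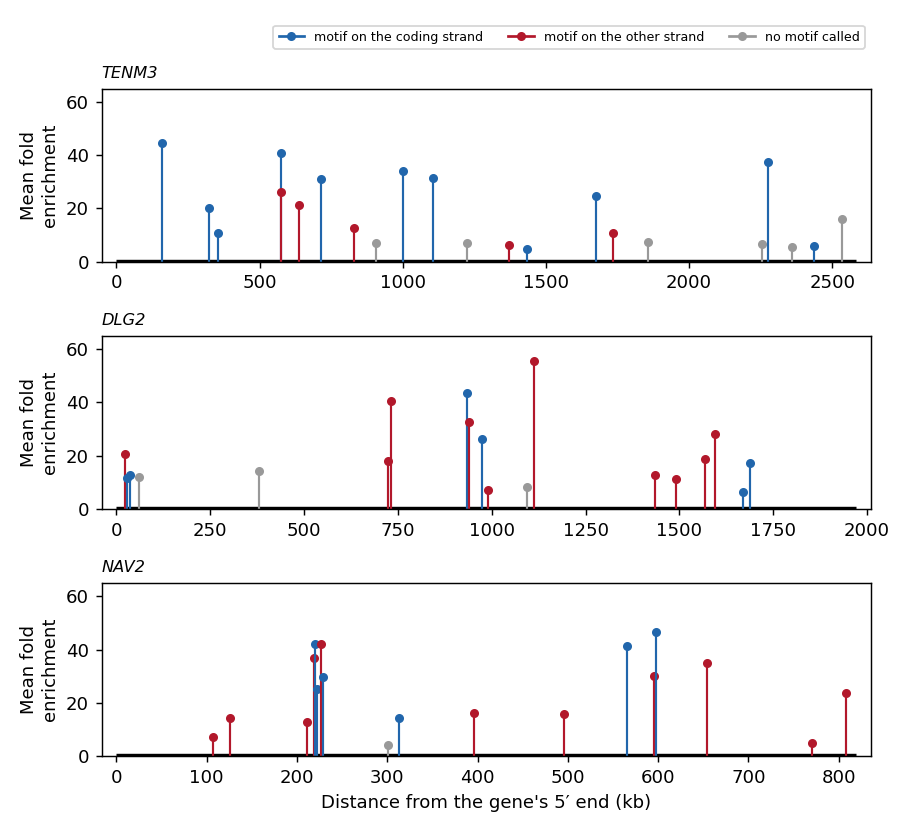
Unmarked CTCF sites along TENM3, DLG2 and NAV2, each drawn from its 5′ end (horizontal, kb; scales differ), with height giving the mean fold enrichment of the 2 replicates (vertical) and colour the strand of the motif relative to the gene. The first 4 sites of TENM3 were sense and the first 4 of NAV2 were antisense. Of the NAV2 sites 6 stood together between 211 and 229 kb from the 5′ end of that gene.

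Of 45 long genes of neurons and cell adhesion all 45 hosted sites, 345 in total, with a median gene length of 1210 kb. The shortest of them was 305 kb long, and of all genes of 300 kb or more 95.1% were hosts, so that the count is near that for genes of such length. Per 100 kb of open gene body they held a median of 0.574 sites and 0.591 when pooled, against a pooled 0.833 over genes of 300 kb or more and 1.11 over all protein-coding genes. After TENM3 and DLG2 came CTNNA2, PTPRD, CNTNAP2 with 13 sites and KCNIP4, TENM2 and WWOX with 12 each. In WWOX, a fragile site gene, 10 of 12 motifs were sense. Of 27 annotated genes of genome architecture 14 (51.9%) were hosts, of 29 sites (median 0.425 and pooled 1.32 per 100 kb), against 28.9% hosts over all protein-coding genes. The listed genes were also longer, with a median of 58.4 kb against 20.7 kb. The cohesin cofactor PDS5B and the cohesin subunit STAG1 held 5 each, from 6.89 to 49.0 and from 6.15 to 50.1 in replicate 1. CTCF itself held none, and CTCFL, its germline paralog, held 1 at 34.5 and 50.7. Of 36 signalling receptors and effectors 19 (52.8%, against the same 28.9%) were hosts, of 35 sites (median 0.539, pooled 0.867), and their median length was 134 kb. GLI3, a transcription factor of Hedgehog signalling, led with 5 sites from 10.5 to 32.9 in replicate 1, and the TGF-beta receptor gene TGFBR1 held 1 strong site at 67.5 and 48.6.

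Of 29 annotated fibroblast genes 6 (20.7%) were hosts, of 9 sites, against 28.9% hosts over all protein-coding genes. Their median was 0 per 100 kb, as over all protein-coding genes, and their pooled density 0.885 against 1.11. CDH2 (N-cadherin) held 4, and ACTA2, CALD1, FBN1, LOX and TNC held 1 each. Many left little room, as COL3A1 had 0.538 kb of open body and VIM had 0. Of 18 genes of other cell types 3 (16.7%, against 28.9%) were hosts. PTPRC had 3 sites, at 22.1 and 29.6, at 25.04 and 17.6, and at 19.8 and 31.1, the first 2 in introns with antisense motifs and the last in the 3′ UTR with no motif called. AFP (alpha-fetoprotein) held 1 at 46.9 and 46.1, and CDH1 (E-cadherin) 1 at 42.5 and 57.5.

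The densest hosts were of another kind. Among hosts with at least 5 sites the density was highest in DEGS1, a gene of ceramide synthesis, with 7 sites at 29.8 per 100 kb of open body. LOC110255247, annotated as a zinc finger protein gene, followed with 14 sites in 59.2 kb at 24.7, LOC100517809 with 6 at 20.2, PCMTD2 with 7 at 17.5 and PTGIS (prostacyclin synthase) with 5 at 14.1. In the first of these the sites had look-alike sequences, shown here from 5′ to 3′ along the gene because they read as copies of 1 unit.

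DEGS1 site 1, chr10:12534131-12534191: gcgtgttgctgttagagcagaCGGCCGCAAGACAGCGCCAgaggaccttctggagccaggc
DEGS1 site 2, chr10:12537574-12537634: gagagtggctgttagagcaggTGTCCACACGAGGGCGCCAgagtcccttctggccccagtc
DEGS1 site 3, chr10:12540834-12540894: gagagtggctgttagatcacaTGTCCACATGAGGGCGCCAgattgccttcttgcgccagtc
DEGS1 site 4, chr10:12543288-12543348: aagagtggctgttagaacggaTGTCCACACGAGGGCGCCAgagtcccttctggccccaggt
DEGS1 site 5, chr10:12546072-12546132: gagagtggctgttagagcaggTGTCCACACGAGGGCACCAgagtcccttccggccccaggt
DEGS1 site 6, chr10:12549578-12549638: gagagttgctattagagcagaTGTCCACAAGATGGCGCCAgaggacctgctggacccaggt
DEGS1 site 7, chr10:12552569-12552629: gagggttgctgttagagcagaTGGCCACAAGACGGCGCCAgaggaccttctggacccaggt

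The first 5 of these were on the plus strand with the gene, and the last 2 are given as they read on the minus strand. All 7 sites lay outside the reference transcript of the gene. Their fold enrichments were 9.52, 38.6, 33.5, 48.4, 23.2, 35.9 and 43.3 in replicate 1 and 7.74, 28.9, 32.4, 28.6, 15.4, 29.4 and 37.0 in replicate 2, so that site 1, whose motif scored lowest at 8.30 bits, was also the weakest. Over the 42 bases that flank the motif within 30 bp, every DEGS1 site matched another of the gene at more than 65% identity, with a median best match of 92.9%. The same was true of 12 of 14 sites in LOC110255247 (13 of 14 motifs sense), of all 6 in LOC100517809 (5 sense) and of 3 of 7 in PCMTD2 (6 sense). Over all hosts only 45 sites in 12 genes had such a match within the gene. Reads from near-identical copies can be assigned to the wrong copy or dropped, and the part of this in the values was not tested.

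A family of copies was also scattered over the genome. Aligned on the motif, 183 replicated CTCF sites shared their flanks over 80 bp at more than 65% identity to a common sequence. Of these 63 were unmarked intragenic sites, in 62 hosts on 15 chromosomes, 102 were unmarked sites outside genes, 17 carried a histone peak, and the other lay near a TSS without one. Unmarked intragenic sites made up 34.4% of the family, against 28.4% of all replicated CTCF peaks. Among sites with a motif, the family took in 0.640% of the unmarked intragenic sites and 0.969% of the unmarked sites outside genes. In the 63 the motif was sense in 15 and antisense in 48. Their median fold enrichment was 11.3 and 14.6, lower than over all the sites, and 4.76% of their motifs held a CpG. The word CAGCCACAAGGGGGCAGAC, found at 23 of the unmarked intragenic sites, was the most frequent of all and is that of the TYMS, ROS1 and GINS2 copies shown next. The 4 strongest intronic copies show how far the likeness runs beyond the motif.

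TYMS intron 3, chr6:105648158-105648218, plus strand: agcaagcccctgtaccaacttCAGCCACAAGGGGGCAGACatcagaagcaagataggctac
ROS1 intron 17, chr1:44452600-44452660, plus strand: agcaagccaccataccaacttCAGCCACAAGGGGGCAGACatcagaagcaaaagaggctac
ADAM2 intron 15, chr15:47255239-47255299, minus strand: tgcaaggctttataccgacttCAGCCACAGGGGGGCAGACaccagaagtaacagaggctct
GINS2 intron 2, chr6:3235227-3235287, minus strand: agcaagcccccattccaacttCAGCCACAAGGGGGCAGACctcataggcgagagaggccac

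These copies in TYMS (thymidylate synthase), ROS1 (a receptor tyrosine kinase), ADAM2 (a sperm surface protein) and GINS2 (a subunit of the replicative helicase) had fold enrichments of 48.6 and 42.9, 44.6 and 35.4, 26.9 and 44.0, and 40.5 and 30.1. A further family took in 20 of the unmarked intragenic sites, of which 5 were sense, with median fold enrichments of 10.1 and 8.94. The 20 were 34.5% of its 58 replicated sites, against 28.4% of all replicated peaks. The reference marked 93.7% of the motifs in the first of these families and 90.0% in the other as repeats. The third family searched for was of another kind. It took in 58 replicated sites, of which 10 (17.2%) were unmarked intragenic sites, against 28.4% of all replicated peaks. Of the 10, 5 were in LOC110255247, 3 in DEGS1 and 1 each in CASC1 and KANSL3. Of these 10 motifs 8 were sense, 50% were marked as repeats and 80% held a CpG, and the median fold enrichments were 25.2 and 19.1. Without the 3 families and the copies within genes the sense shares in the 4 parts of the gene were 55.3%, 50%, 45.5% and 45.02%.

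At the limit of 2.5 kb the 3 nearest sites were in SETD3, ABCA12 and TIMMDC1, with their edges 2513, 2519 and 2536 bp from a TSS and fold enrichments of 7.35 and 9.01, 48.7 and 73.2, and 57.3 and 53.5. Just inside the limit the otherwise qualifying sites were in VILL, CUX1 and KIFC1, at 2500, 2482 and 2481 bp with 36.6 and 33.1, 36.7 and 28.7, and 10.5 and 16.6. In all 525 unmarked intragenic sites were left out by the limit, and 656 lay between 2.5 and 5 kb. The median distance of the sites from a TSS was 34.3 kb, from an H3K27ac peak 11.9 kb and from an H3K4me3 peak 18.4 kb. An H3K27ac peak of either replicate began within 1 kb of 867 sites (7.97%).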

How the data were processed

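The deposited files are 1 narrowPeak list per library. Per the study's methods, the authors aligned the reads with Bowtie2, retained only uniquely aligned read pairs without duplicates, and ran MACS2 in narrow mode on each library. The stated q value was 0.01, but the deposited lists reach q values of 0.0499. Versions are not given in the sources used here. The deposited columns used were the fold enrichment ratio over the control and −log10 q, with the summit offset. The deposited score and −log10 p columns were not used in a result. Peak lists hold no read counts, so the depth is unknown. The submitters' processing notes name Sscrofa11.1, and no peak ended beyond a chromosome of the RefSeq copy of that build.

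Peaks were compared in Python 3 with an overlap of 1 bp. Exonic summits were those in an exon of any transcript of the host. Where 2 genes held a summit, the one with an exon there, and otherwise the shorter, gave exon, position and strand. The motif of 19 bp was learned by expectation maximisation on 600 peaks of odd autosomes that were not members, and scanned on both strands with exact score thresholds. The code was tested on simulated data with planted motifs. Repeat families were found from words of 12 bases shared at 1 offset from the motif. That search, the comparison of copies within genes and the pair classes were chosen after values had been seen.

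The members and gene lists were chosen with earlier results of these data known. Genes were named by rule: the 10 strongest members, the 10 hosts with most members, the 5 densest hosts with 5 or more, the 5 strongest exonic members, 3 sites on each side of the TSS limit, and the leading hosts of each list. Of these, 1 site is not reported here. Everything is described by counts, shares and both replicates, with no test. Alternatives were a −log10 q of 5, 50% overlap, a TSS limit of 5 kb, other TSS definitions, a margin of 1 kb to histone peaks, each library left out, and a stricter or narrower motif search.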

Additional observations from a re-analysis of the deposited data

Results flagged for a closer look

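On unplaced scaffolds, which the rule leaves out, 434 CTCF replicate 1 peaks were listed, and 251 of them overlapped a replicate 2 peak and no histone peak. They are listed here as a signal in data that no comparison used. They were not assigned to genes. On chromosome Y replicate 1 listed 1 peak, and no site met the rule there.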

How the results depend on the processing

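No paired analysis was possible because no result comes from a test. Of the alternatives, 13 left the number of sites and 13 the number of host genes within 1.5 times of the main count. Without each library in turn the number of sites ran from 10965 to 12396, of host genes from 5660 to 6024, the intronic share from 91.2% to 91.6% (main 91.5%), the motif share from 88.7% to 90.6% (main 90.6%) and the sense share from 47.9% to 48.2% (main 48.0%). Shares are named next where they moved by more than the SD between the lists led by either CTCF replicate, which was only 0.0480 percentage points for the intronic share, 0.265 for the motif share and 0.159 for the sense share. The intronic share was 91.9% with a TSS limit of 5 kb, 91.4% with the distance taken from the summit, 91.8% with the TSSs of all transcripts and 91.8% with no histone peak within 1 kb. The motif share was 91.4% at a −log10 q of 5 or more, 90.9% with no histone peak within 1 kb, 75.8% at a motif p below 1e-05 and 83.5% within 50 bp of the summit. The sense share was 48.2% with no histone peak within 1 kb, 47.8% at a motif p below 1e-05 and 48.4% within 50 bp. Replicate 2 peaks taken as the lead, an alternative added after seeing the data, gave 91.4% intronic, 91.0% with a motif and 48.2% sense. The cause of these shifts was not tested, other than that a stricter or narrower search calls fewer motifs by construction. The sense share was above 50% in part 1 of the gene and below it in parts 3 and 4 in each of the 7 lists compared, with 54.4% to 55.5% in part 1 and 44.6% to 45.2% in part 4.

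The 2 libraries per target, with no statement that they are separate cultures, and peak lists without read counts limit the precision. A missing histone peak is a missing call at this depth and threshold, not a measured absence of the mark. Exons, TSSs and hosts follow 1 annotation.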
